A study of Homo sapiens with 12 samples.

Results

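The HOXC genes of D283 medulloblastoma cells were described in libraries with ABL1 and ABL2 inactivated and in libraries with a scrambled control. They are 9 of the 39 HOX genes in the count table and 9 of 49651 genes with counts, and every row with the symbol HOXC4, HOXC5, HOXC6, HOXC8, HOXC9, HOXC10, HOXC11, HOXC12 or HOXC13 was taken. The cluster was chosen from these same counts, inactivated against control, so the differences of its 9 genes between the groups are a description and carry no test. D283 is a human medulloblastoma line with amplified MYC. The inactivated group held 3 libraries with genetic inactivation of the tyrosine kinase genes ABL1 and ABL2, and the control group 3 libraries of the same line with a scrambled construct, each library being sequenced on 2 lanes. The method of inactivation and whether the cells were a clone or a pool are not given in the sources used here. Nor do the labels say that each library had a culture of its own, so a p-value here speaks of the spread among these libraries, which may be technical.

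HOX genes encode homeodomain transcription factors that give cells their position along the head-to-tail axis of the embryo. The genes lie side by side in clusters, and their order on the chromosome follows the order in which they are used, with low-numbered genes in the hindbrain and high-numbered genes in the lower spinal cord, limbs and tail. The cerebellum, where medulloblastoma arises, forms in front of the region in which HOX genes are normally used. Polycomb complexes keep the genes of a cluster silent, trithorax and MLL complexes keep them active, and retinoic acid and the caudal factors are known to switch them on in the embryo.

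Libraries held 34292341 to 49034159 counts in the inactivated group and 33505903 to 35893081 in the control group, and 3 counts in a library were worth 0.0612 to 0.0895 CPM, that is counts relative to library size. ABL1 stood at 61.8 ± 0.625 CPM in inactivated libraries and 153 ± 4.82 CPM in control libraries (SD, n = 3 each), and it fell by 1.31 on the log2 scale (adjusted p = 5.4e-15, edgeR quasi-likelihood). ABL2 stood at 104 ± 7.59 CPM in inactivated and 138 ± 5.58 CPM in control libraries, and it fell by 0.41 (adjusted p = 1.3e-06). Of 12 medulloblastoma and cerebellar precursor markers 7 were tested, of which 3 rose, 3 fell and 1 did not pass, and NRL and BARHL1 had 0 counts in all 6 libraries. OTX2, a regulator of photoreceptor fate, fell, at 665 ± 11.4 CPM in inactivated and 829 ± 16.0 CPM in control libraries, while CRX and IMPG2, genes known from photoreceptors, rose by 0.90 and 2.24. The libraries are bulk RNA, in which a change in the number of cells that use a gene and a change in RNA per cell cannot be told apart.

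The cluster lay on chromosome 12 of GRCh38.p14 over 117200 bases, chr12:53938831-54056030, with all 9 genes on the forward strand in the order HOXC13, HOXC12, HOXC11, HOXC10, HOXC9, HOXC8, then HOXC6, HOXC5 and HOXC4. In the deposited annotation the last 3 genes share their first exon, 527 bases at chr12:54016888-54017414, and differ in the exons that follow. How reads from that exon were assigned, and whether strand was used in counting, are not given in the sources used here, so part of the counts of HOXC4, HOXC5 and HOXC6 could belong to a neighbour. Their exons outside it measured 1825 bases for HOXC4, 1611 for HOXC5 and 1651 for HOXC6. HOXC8, HOXC9 and HOXC11 share no exon base with another gene of the table. HOXC13 shares 172 bases with the opposite-strand HOXC13-AS, HOXC10 shares 44 with HOXC-AS3, and HOXC12 shares 86 with LOC105369775. The opposite-strand LOC124902939 covers all 527 bases of the first exon that HOXC4, HOXC5 and HOXC6 share.

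The homeobox, the 180 bases that encode the DNA-binding homeodomain, is known as their most conserved part and so the part in which reads could be confused. It is shown for HOXC12 and HOXC11, which had almost no reads in control libraries, and for HOXC4 at the other end of the cluster. Capitals mark codons of the third helix, which lies in the major groove of DNA, and the sequences were read 5′ to 3′ from GENCODE 29 transcripts (GRCh38, forward strand).
HOXC12, chr12:53956357-53956536: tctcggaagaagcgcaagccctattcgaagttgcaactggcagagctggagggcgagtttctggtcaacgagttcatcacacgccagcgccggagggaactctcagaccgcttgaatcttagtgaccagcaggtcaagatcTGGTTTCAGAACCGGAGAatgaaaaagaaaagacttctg
HOXC11, chr12:53975192-53975371: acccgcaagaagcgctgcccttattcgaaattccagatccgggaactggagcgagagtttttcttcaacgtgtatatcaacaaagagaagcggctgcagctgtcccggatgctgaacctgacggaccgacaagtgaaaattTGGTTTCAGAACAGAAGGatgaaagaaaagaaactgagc
HOXC4, chr12:54054876-54055055: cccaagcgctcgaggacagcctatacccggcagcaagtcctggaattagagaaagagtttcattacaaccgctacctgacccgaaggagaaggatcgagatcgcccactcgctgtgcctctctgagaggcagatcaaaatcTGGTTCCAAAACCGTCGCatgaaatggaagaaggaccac
HOXC11 and HOXC12 were identical at 62.8% of these bases. Over all pairs of members, identity ran between 50.6% for HOXC13 with HOXC6 and 77.8% for HOXC6 with HOXC5. Of the stretches of 50 bases in each member's transcripts, the read length of the libraries, 0 occurred in a transcript of a gene outside the cluster. Within the cluster, 39.7% of the stretches of HOXC5, 16.3% of HOXC4 and 13.1% of HOXC6 occurred in another gene, as did 5.27% of HOXC13, 5.23% of HOXC10 and 4.55% of HOXC9. HOXC8, HOXC11 and HOXC12 shared 0. These stretches were taken from GENCODE 29 transcripts and not from the annotation used in counting, in which HOXC12 shares 86 bases and HOXC9 shares 0.

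The 9 genes together summed to 83.8, 79.6 and 82.3 CPM in the inactivated libraries, against 44.6, 49.5 and 53.3 CPM in the control libraries. The difference was spread unevenly along the cluster. In the inactivated libraries the 4 genes at the HOXC13 end had counts where control libraries had few or none, HOXC9, HOXC6, HOXC5 and HOXC4 were between 1.76 and 2.85 times as high, and HOXC8 was at nearly the same level in both groups. The values that follow are TMM-normalized CPM, and log2 fold changes are from the edgeR fit. Ratios are summed counts scaled to library totals, with exact intervals that cover counting error only. Each SE is the size of the log2 fold change divided by the square root of its F statistic.

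**Figure D1:**
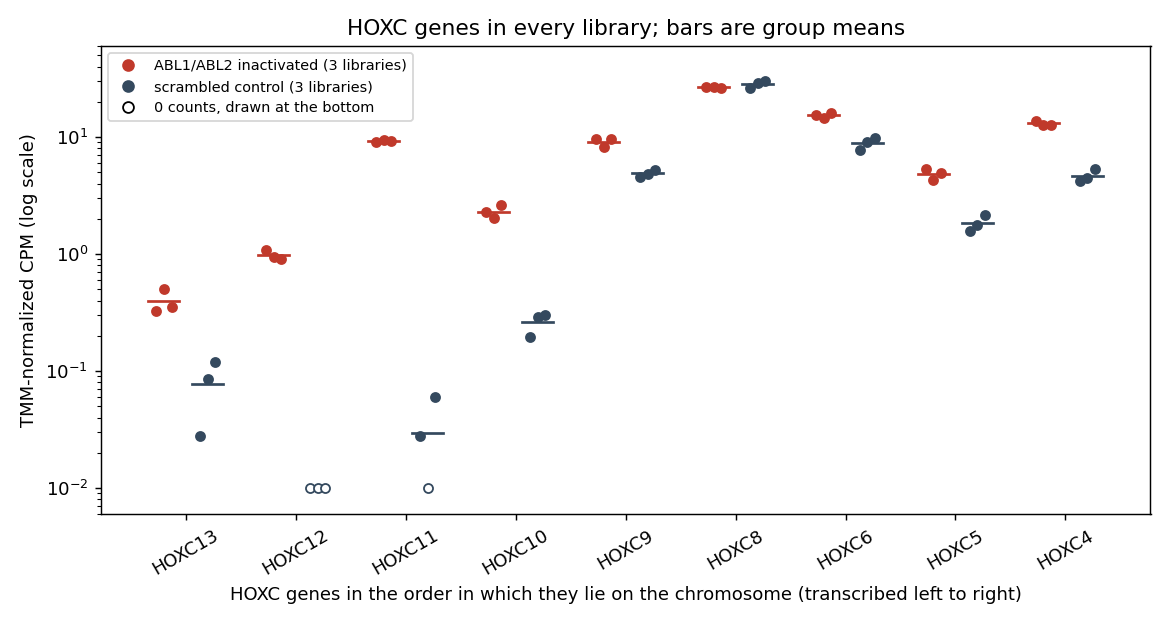
TMM-normalized CPM (log axis) of the 9 HOXC genes in every library, in chromosomal order, with inactivated libraries in red to the left of control libraries in dark grey and bars for group means. HOXC11 sits near 9 CPM in inactivated libraries and at or below 0.0602 CPM in control libraries, and the points of HOXC8 overlap.

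HOXC11, of the posterior group used in hindlimb and tail, had 333, 469 and 314 counts in the inactivated libraries, against 1, 0 and 2 counts in the control libraries. Its level was 9.24 ± 0.184 CPM in inactivated libraries and 0.0294 ± 0.0301 CPM in control libraries. The ratio of summed counts was 325, with a counting interval of 111 to 1578, since only 3 control counts stand under it. The inactivated libraries differed among themselves by little, between 9.10 and 9.45 CPM, and the groups did not overlap.

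HOXC12, its neighbour of the same posterior class, had 40, 47 and 31 counts in the inactivated libraries and 0 in each control library. Against a floor of 3 counts over the control group this is at least 34.4-fold higher, and the exact counting interval of the ratio begins at 27.5. Its level was 0.982 ± 0.0985 CPM in inactivated libraries, and the count ratio of HOXC11 to HOXC12 was 8.33, 9.98 and 10.1 in the 3 inactivated libraries. No such ratio exists for the control libraries.

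HOXC10, known from the lumbar spinal cord and hindlimb, had 84, 100 and 89 counts in the inactivated libraries, against 7, 10 and 10 in the control libraries, a ratio of 8.83 (counting interval 5.94 to 13.7). HOXC13, the end gene of the cluster, known for its role in hair and nail, had 12, 25 and 12 counts in the inactivated libraries, against 1, 3 and 4 in the control libraries, a ratio of 5.35 (2.51 to 13.1). Both were higher in every inactivated library than in any control library. HOXC13 rests on few counts, and its ratio was 2.77 on the first lane and 13.1 on the second, whereas that of HOXC10 was 9.14 and 8.55. HOXC10 to HOXC13 had at most 10 counts in a control library and passed the filter on low counts through the inactivated libraries alone. That they were fitted thus rests on the group in which they were high, and no test is read from them.

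HOXC9, a thoracic gene known for its part in spinal motor neuron columns, stood at 9.59, 8.24 and 9.58 CPM in the inactivated libraries, against 4.58, 4.84 and 5.23 CPM in the control libraries. The groups did not overlap, and the log2 fold change was 0.90 ± 0.10 (SE). HOXC8, a gene of the brachial and thoracic cord, stood at 26.8, 26.7 and 26.0 CPM in the inactivated libraries, against 26.3, 29.0 and 30.2 CPM in the control libraries. It was the only member whose groups overlapped. The log2 fold change of HOXC8 was -0.11 ± 0.06 (SE). The neighbours HOXC9 and HOXC8 differed in their ratio, which was 0.358, 0.309 and 0.369 in inactivated libraries and 0.174, 0.167 and 0.173 in control libraries.

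The genes of the shared first exon were all higher in the inactivated libraries. HOXC6, used in the brachial cord and thorax, stood at 15.6, 14.7 and 16.1 CPM in the inactivated libraries, against 7.71, 9.07 and 9.87 CPM in the control libraries (log2 fold change 0.79 ± 0.08). HOXC5, a gene of cervical levels, stood at 5.36, 4.33 and 4.91 CPM in the inactivated libraries, against 1.58, 1.79 and 2.17 CPM in the control libraries (1.40 ± 0.15). HOXC4, also of cervical levels and used in lymphoid cells, stood at 13.7, 12.8 and 12.8 CPM in the inactivated libraries, against 4.22, 4.43 and 5.36 CPM in the control libraries (1.49 ± 0.09). In none of the 3 genes did the groups overlap. HOXC4 and HOXC5 kept much the same proportion, with a count ratio of HOXC4 to HOXC5 of 2.55, 2.95 and 2.60 in inactivated and 2.68, 2.48 and 2.47 in control libraries, which overlap. HOXC4 to HOXC6 was 0.879, 0.872 and 0.795 in inactivated and 0.547, 0.489 and 0.543 in control libraries, with no overlap.

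RefSeq gives HOXC4 and HOXC5 one promoter, and its entry matched 2 of the 9 members. The 250 bases before their shared start are shown because the first exon of the 3 genes begins at their end; capitals mark CG dinucleotides, the bases on which DNA methylation falls.
HOXC4 and HOXC5, chr12:54016638-54016887, forward strand, GRCh38.p14: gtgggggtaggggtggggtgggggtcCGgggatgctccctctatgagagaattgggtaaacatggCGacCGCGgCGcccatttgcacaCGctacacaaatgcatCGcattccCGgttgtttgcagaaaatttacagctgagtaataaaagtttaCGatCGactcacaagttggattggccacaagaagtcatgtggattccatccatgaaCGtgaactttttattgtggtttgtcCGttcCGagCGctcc
With the 50 bases that follow, this promoter held 15 CG dinucleotides, against a median of 14 over 35116 RefSeq promoters of the same length. Its observed over expected CG ratio was 0.755, against a median of 0.579. Searched on both strands, it held CCAAT at 2 places, as did 34.6% of promoters at least once, and TAAT, the core that homeodomains bind, at 1 place (50.2% of promoters). It held 0 matches of TATAAA (11.5% of promoters), GGGCGG (45.0%), TGATTNAT, a joint PBX and HOX motif (2.82%), and AGGTCA, the site that nuclear receptors read (13.8%).

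Levels can be compared between genes per kb of exon. In the inactivated libraries the order was HOXC8 at 11.0, HOXC6 at 7.08, HOXC9 at 6.20, HOXC4 at 5.56, HOXC11 at 2.83, HOXC5 at 2.28, HOXC10 at 1.17, HOXC12 at 0.301 and HOXC13 at 0.167 CPM per kb. When the same CPM was divided by only the exon bases that no other gene shares, HOXC4 stood above HOXC9 and HOXC5 above HOXC11. Any counts from the shared exon stayed in that CPM while its bases were dropped, which can only raise HOXC4, HOXC5 and HOXC6. The level on the unshared bases alone was not tested. In the control libraries HOXC8 at 11.8, HOXC6 at 4.08, HOXC9 at 3.31 and HOXC4 at 1.99 CPM per kb came in the same order, followed by HOXC5 at 0.861 and HOXC10 at 0.133, and HOXC11 at 0.00902 came second to last, before HOXC12 at 0. Set against all 14704 tested genes, HOXC11 stood at or above 40.4% of them in the inactivated group and at or above 0.211% in the control group, both by mean CPM. HOXC11 is among the tested genes through the inactivated libraries alone. Its low place in the control group thus follows from the filter and the choice of the cluster, and nothing is read from it.

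**Figure D2:**
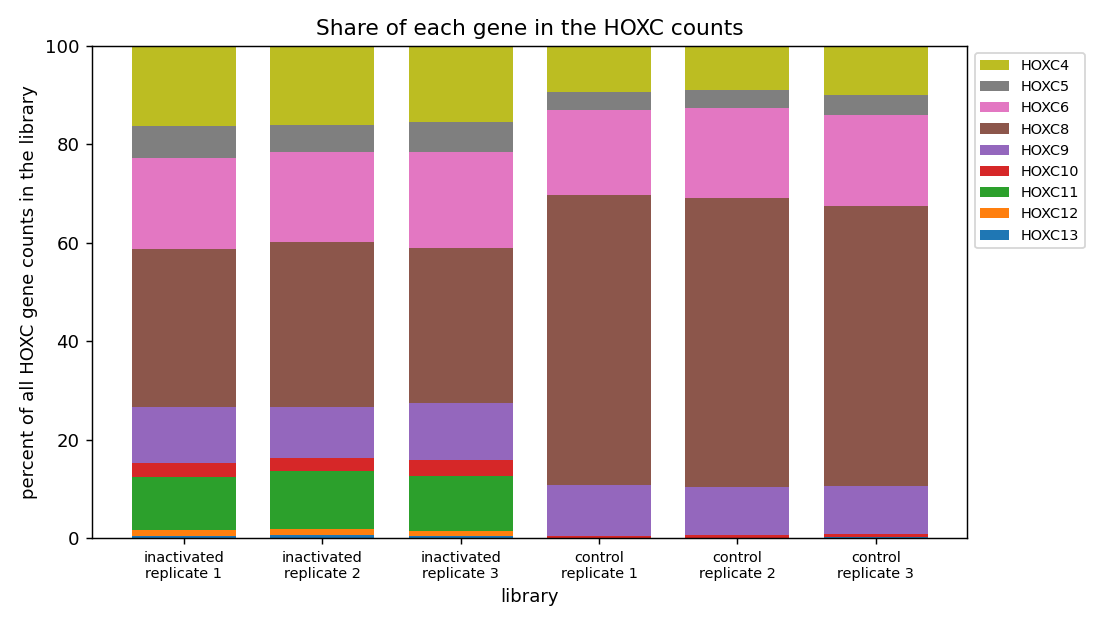
Percent of the summed HOXC counts that each gene took in each library, with the 3 inactivated libraries left of the 3 control libraries. HOXC8 takes most of the control bars, and HOXC11 is visible only in the inactivated bars.

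The makeup of the HOXC counts differed accordingly. HOXC8 took 32.4 ± 1.02% of them in inactivated libraries and 58.1 ± 1.21% in control libraries (SD, n = 3 each). HOXC10 to HOXC13 together took 15.3, 16.2 and 15.8% in the inactivated libraries, against 0.567, 0.756 and 0.902% in the control libraries. Without HOXC8, the other 8 genes summed to 55.4 ± 2.19 CPM in inactivated and 20.6 ± 2.39 CPM in control libraries, 2.68 times as much. Control replicate 1 was the lowest of the control libraries for 7 of the 9 genes, all but HOXC11 and HOXC12.

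Of the 9 members, 8 passed the edgeR threshold (adjusted p under 0.05), all of them higher in the inactivated libraries. Of all 14704 tested genes 59.3% passed in either direction, and 29.6% passed and were higher. In 8 members every inactivated library was above every control library, as in 31.4% of tested genes, and 6 had a fitted log2 fold change of at least 1, as did 6.37%. The median of the members was 1.49, the value of HOXC4, also with HOXC12 at its bound, against 0.003 over all tested genes. The cluster was chosen on this contrast, so nothing is read from these counts.

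The noncoding RNAs of the cluster were not used in choosing it. HOTAIR, a long noncoding RNA transcribed from the opposite strand between HOXC12 and HOXC11, known for binding to Polycomb repressive complex 2, had 145, 169 and 110 counts in the inactivated libraries, against 2, 0 and 1 in the control libraries. Its level was 3.53 ± 0.389 CPM in inactivated and 0.0288 ± 0.0281 CPM in control libraries, a count ratio of 123 (counting interval 42.0 to 601), and the groups did not overlap. Like HOXC10 to HOXC13, it passed the filter on low counts through the inactivated libraries alone, so no p is given for it. HOTAIR shares no exon base with HOXC11 or HOXC12, and its first exon lies within the HOXC11 intron. HOXC-AS1, an antisense RNA beside HOXC9, had 8, 17 and 6 counts in inactivated and 3, 3 and 4 in control libraries, too few to be tested. HOXC-AS2, HOXC13-AS, MIR196A2 and MIR615 had at most 2 counts over all 6 libraries, and HOXC-AS3 and FLJ12825 had 0.

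MIR196A2 lies between HOXC10 and HOXC9 and encodes miR-196a, a microRNA known to act on HOX mRNAs. Its mature 5p sequence from RefSeq is shown with the seed, bases 2 to 8, in capitals, beside the first stretch of the HOXC8 3′ UTR that is complementary to the seed, with those bases in capitals.
hsa-miR-196a-5p, chr12:53991762-53991783, forward strand: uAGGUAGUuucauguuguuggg
HOXC8 target stretch: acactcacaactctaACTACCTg
HOXC8 held ACTACCT at 2 places in the GENCODE 29 transcript's 3′ UTR and the other 8 members at 0, while 7.12% of 19067 genes held it at least once. Of the other HOX genes that were tested, HOXA7 held it at 4 places, HOXA5 and HOXB13 at 1, and HOXA13, HOXA10, HOXA6 and HOXA3 at 0. The mature microRNA is not measured by libraries of enriched mRNA, so its level is unknown and its part in any of these values was not tested.

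**Figure D3:**
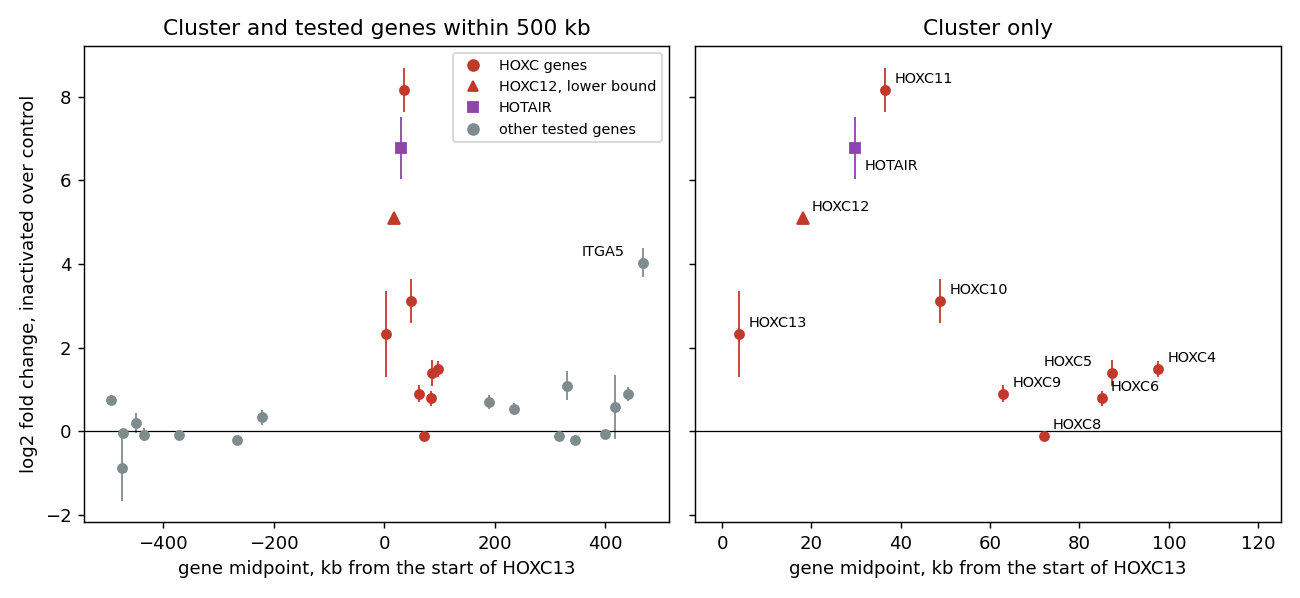
Log2 fold change, inactivated over control, with 95% intervals of the edgeR fit, by distance of the gene's midpoint from the start of HOXC13, for the cluster with tested genes within 500 kb (left) and the cluster alone (right). For HOXC11 and HOTAIR these intervals are narrower than the counting intervals in the text, which rest on 3 control counts each. HOXC12 is drawn at its bound against 3 control counts, HOXC11 at 8.16 and HOTAIR at 6.77 stand highest, and HOXC8 lies at -0.11.

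Genes beside the cluster were tested in the same fit. Within 500 kb of its ends lay 39 other genes, of which 17 were tested, 7 rose, 2 fell and 8 did not pass. The median log2 fold change of the 17 was 0.20. The nearest tested genes were LINC02381, a long noncoding RNA 70.0 kb beyond HOXC4, which rose by 0.69 (14.9, 13.8 and 13.4 CPM in inactivated and 9.42, 7.97 and 8.60 CPM in control libraries, adjusted p = 4.7e-07, edgeR), and SMUG1, a uracil DNA glycosylase gene 102 kb beyond HOXC4, which rose by 0.53 (21.5 ± 1.30 CPM in inactivated and 14.8 ± 0.723 CPM in control libraries). On the HOXC13 side the nearest was CALCOCO1, a coactivator and autophagy receptor gene 211 kb away, at 12.9 ± 1.25 CPM in inactivated and 10.2 ± 0.851 CPM in control libraries, which rose by 0.34.

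Among 14 tested protein-coding genes in this stretch, the size of the differences ran from small decreases to the 4.03 of ITGA5. ITGA5, the integrin subunit of the fibronectin receptor, 339 kb beyond HOXC4, rose to 8.91 ± 0.177 CPM in inactivated libraries, against 0.546 ± 0.207 CPM in control libraries (adjusted p = 1.5e-13, edgeR). ZNF385A rose by 0.89 and PRR13 by 0.74, and the noncoding RNA SCAT2 rose by 1.09. HNRNPA1, an abundant splicing factor gene, fell by 0.22, and ATP5MC2, a subunit gene of ATP synthase, fell by 0.21. PCBP2, MAP3K12, TARBP2, ATF7, CBX5, COPZ1 and GPR84 did not pass. CBX5, the heterochromatin protein gene, stood at 1063 ± 74.2 CPM in inactivated and 1146 ± 64.9 CPM in control libraries. Over the 784 tested genes of chromosome 12 outside the HOXC genes the median log2 fold change was -0.01. Over the 50 of them between 51 and 55 Mb it was 0.30, where 24 rose and 6 fell. Of all tested genes 29.6% were called higher. Among the 24 are HOTAIR, which lies inside the cluster, KRT18 and AMHR2, which all passed the filter on low counts through the inactivated libraries alone. KRT8 and KRT18, keratin genes on the HOXC13 side, are in that stretch.

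The HOXA cluster was the other one with a sizable level, and its sum was nearly the same in both groups. HOXA genes summed to 39.6 ± 1.01 CPM in inactivated and 38.0 ± 1.61 CPM in control libraries, HOXB genes to 0.840 ± 0.188 CPM in inactivated and 0.115 ± 0.0543 CPM in control libraries, and HOXD genes to 0.374 ± 0.0587 CPM in inactivated and 0.105 ± 0.0876 CPM in control libraries (SD, n = 3 each). Of the 30 genes outside the HOXC cluster, 7 were tested and 10 had no read in any library. Of the 7, HOXA13 and HOXB13 were called higher, HOXA7 was called lower and 4 did not pass.

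**Figure D4:**
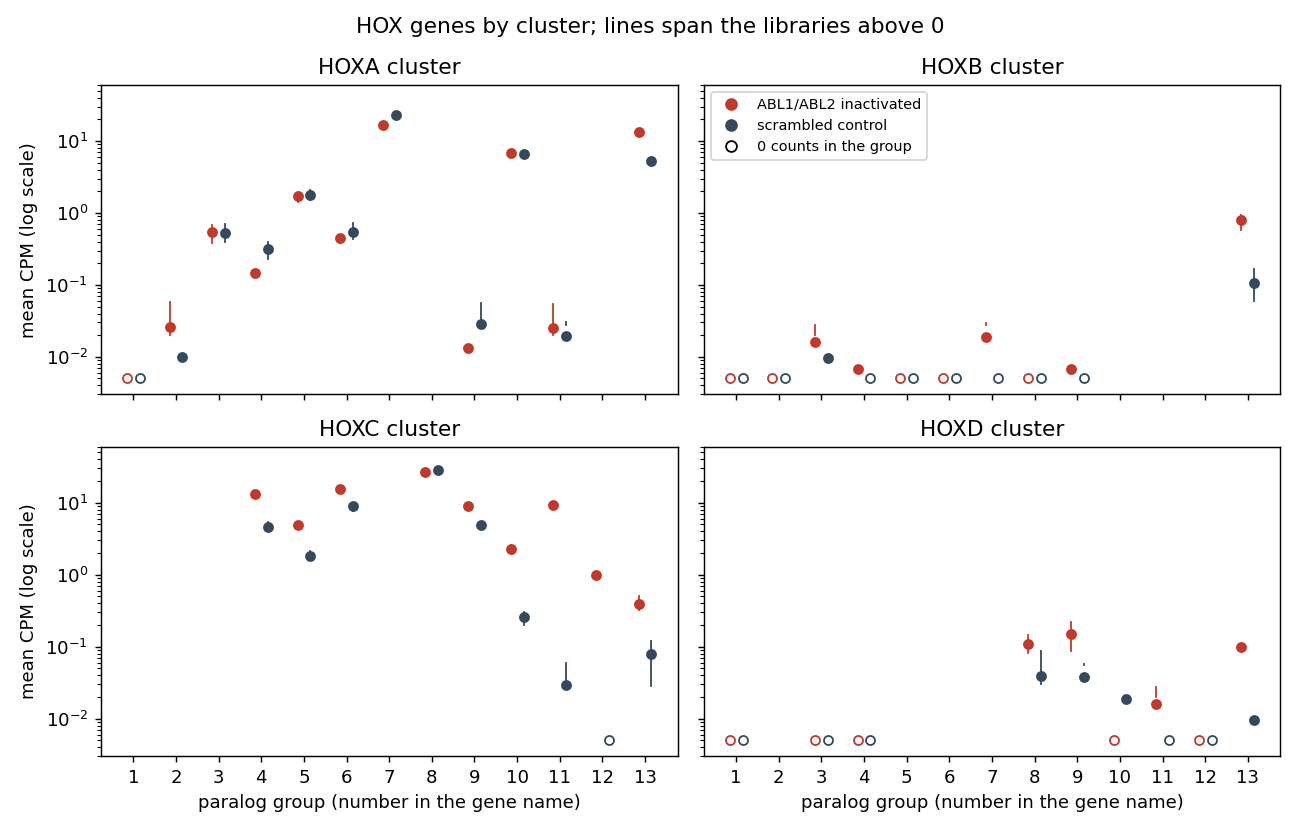
Mean CPM (log axis) of each HOX gene by the number in its name, inactivated libraries in red left of control libraries in dark grey, points averaging all 3 libraries, lines over the libraries above 0 and hollow points for 0 counts. Outside the HOXC panel, HOXA7, HOXA10 and HOXA13 are the genes above 2 CPM.

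HOXA13, of the paralog group of HOXC13, had 472, 666 and 477 counts in the inactivated libraries, against 179, 180 and 177 in the control libraries, and it rose by 1.37 ± 0.08 on the log2 scale (adjusted p = 3.4e-11, edgeR). HOXB13, of the same group, had 21, 46 and 30 counts in the inactivated libraries, against 6, 3 and 2 in the control libraries, a count ratio of 7.70 (counting interval 4.12 to 15.9). It too passed the filter through the inactivated libraries alone, so no p is given. HOXD13, the remaining gene of the group, had 12 counts over the inactivated and 1 over the control libraries and was not tested. HOXA7 was the tested gene that fell, at 16.5 ± 1.04 CPM in inactivated and 22.9 ± 1.68 CPM in control libraries (adjusted p = 7.8e-06, edgeR). HOXA4, which was not tested, had 5, 8 and 5 counts in inactivated and 12, 8 and 13 in control libraries. By CPM it was lower in every inactivated library than in any control library. HOXA10 stood at 6.76 ± 0.609 CPM in inactivated and 6.68 ± 0.293 CPM in control libraries, a log2 fold change of 0.02 ± 0.10, while HOXA3, HOXA5 and HOXA6 did not pass either. HOTTIP, the noncoding RNA beyond HOXA13, had 3, 11 and 3 counts in inactivated and 1, 0 and 2 in control libraries. Unlike HOXC11, the paralogs HOXA11 and HOXD11 had at most 3 counts in either group.

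Genes of the machinery that works with or on HOX clusters were taken from fixed lists. HOX proteins bind DNA with TALE homeodomain cofactors, and all 9 of these were tested: 3 rose, 5 fell and 1 did not pass, and their median log2 fold change was -0.29. PBX4 and PBX2 rose by 1.02 and 0.87, while PBX3 stood at 59.1 ± 1.73 CPM in inactivated and 54.9 ± 2.07 CPM in control libraries. The 5 that fell were the 3 MEIS and both PKNOX genes, of which MEIS2 passed the filter on low counts through the control libraries alone. MEIS1, a common partner of posterior HOX proteins, stood at 4.02 ± 0.441 CPM in inactivated and 8.22 ± 0.397 CPM in control libraries, and MEIS2 at 0.177 ± 0.0242 CPM in inactivated and 1.25 ± 0.0361 CPM in control libraries. PKNOX2 fell by 0.72, MEIS3 by 0.77 and PKNOX1 by 0.29. PBX2 has copies on alternate contigs of the assembly, over which its reads may be split.

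**Figure D5:**
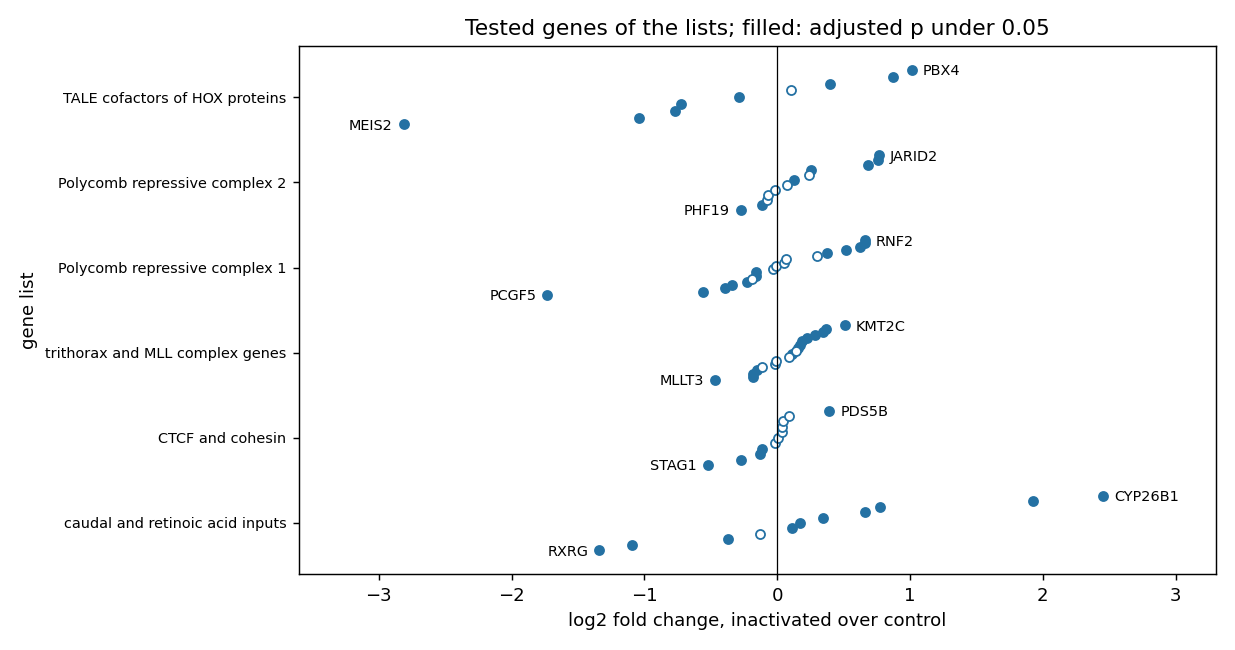
Log2 fold change, inactivated over control, of the tested genes in 6 lists, filled where the adjusted p was under 0.05 and hollow otherwise, with the gene at each end of a list named. MEIS2 at -2.81 and PCGF5 at -1.73 are the furthest on the lower side, and CYP26B1 at 2.46 on the higher side.

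Polycomb repressive complex 2 writes the repressive mark on histone H3 at silent HOX genes. Of its 12 tested genes 5 rose, 2 fell and 5 did not pass, with a median of 0.10. SUZ12 stood at 280 ± 12.2 CPM in inactivated and 166 ± 5.22 CPM in control libraries and rose by 0.76, as did JARID2 by 0.76 and EZH1 by 0.69, while PHF19 fell by 0.27. EZH2, the main catalytic subunit, stood at 188 ± 1.15 CPM in inactivated and 190 ± 3.89 CPM in control libraries (log2 fold change -0.02 ± 0.04). In Polycomb repressive complex 1, which reads that mark, 5 of 18 tested genes rose, 7 fell and 6 did not pass, with a median of -0.02. PCGF5, a subunit of its variant forms, fell to 10.8 ± 0.484 CPM in inactivated libraries, against 35.8 ± 2.51 CPM in control libraries (adjusted p = 6.6e-14, edgeR), whereas RNF2 and CBX2 rose by 0.66 and 0.51.

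Several of these genes lay on stretches where most tested genes were higher in the inactivated libraries. The median log2 fold change was 0.50 over 554 tested genes of chromosome 17 beyond 30 Mb, which holds SUZ12, EZH1, CBX2 and HOXB13. It was 0.51 over 689 genes of chromosome 6, which holds JARID2 and PBX2, and 0.33 over 385 genes of chromosome 1 beyond 170 Mb, which holds RNF2 and ABL2. Chromosome 7, which holds the HOXA cluster, had a median of -0.08 and chromosome 2, which holds the HOXD cluster, -0.002. The stretches on chromosomes 17, 6 and 1 were chosen with earlier results of these data known, so their medians are a description. The part of these stretches in the values above was not tested.

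Of 18 tested trithorax and MLL complex genes 9 rose, 4 fell and 5 did not pass, with a median of 0.13. KMT2A, the methyltransferase known for maintaining HOX expression, rose by 0.34 (181 ± 21.6 CPM in inactivated and 143 ± 5.45 CPM in control libraries), KMT2C by 0.51 and RBBP5 by 0.37, while MLLT3, a subunit of the elongation complexes, fell by 0.47. CTCF and cohesin, which set the domain borders within HOX clusters, had 1 gene that rose, 4 that fell and 6 that did not pass among 11 tested. STAG1 fell by 0.52 and CTCF by 0.28, PDS5B rose by 0.39, and STAG2 fell by 0.12, a call that was lost in 6 other settings.

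Among 21 genes of the caudal and retinoic acid inputs 11 were tested, of which 7 rose and 3 fell, with a median of 0.17. RARB, a retinoic acid receptor gene, rose to 6.90 ± 0.611 CPM in inactivated libraries, against 1.81 ± 0.324 CPM in control libraries (log2 fold change 1.93 ± 0.14, adjusted p = 4.1e-10, edgeR). RARG rose by 0.66, and ALDH1A3, which makes retinoic acid, rose by 0.78, at 36.2 ± 1.63 CPM in inactivated and 21.1 ± 0.848 CPM in control libraries. DHRS3, which turns retinal back into retinol, fell by 1.10. The receptor genes RXRG and RXRA fell as well, with log2 fold changes of -1.34 and -0.37. CYP26B1, which breaks retinoic acid down and was singled out after its values were seen, stood at 1.34 ± 0.0768 CPM in inactivated and 0.242 ± 0.0360 CPM in control libraries. It is among the 7, but it passed the filter on low counts through the inactivated libraries alone. CDX1 and CDX4 had 0 counts in every library, and CDX2 stood at 0 in inactivated and at 0.00959 CPM in control libraries. RXRB, listed near 0, has copies on alternate contigs and is not read here.

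Markers of other cell types that use posterior HOXC genes were looked at beside these values. Of 10 spinal motor neuron markers 5 were tested, 3 rose and 2 fell, with summed levels of 39.7 to 40.6 CPM in inactivated and 47.6 to 49.4 CPM in control libraries, LHX1 and SLC5A7 at 0, and 7 of the 10 under 1 CPM in every library. Of 11 fibroblast and mesenchyme markers 7 were tested, 2 rose and 4 fell, with sums of 48.2 to 51.8 CPM in inactivated and 56.4 to 59.4 CPM in control libraries and COL3A1 at 0. Epithelial markers summed to 235 to 275 CPM in inactivated and 19.5 to 21.6 CPM in control libraries, where 3 of 10 were tested. That sum was nearly all KRT8, at 252 ± 20.1 CPM in inactivated and 18.6 ± 1.21 CPM in control libraries, while EPCAM and CDH1 stood at 0.0189 and 0.00672 CPM in inactivated libraries and at 0.0388 CPM each in control libraries. Endothelial markers summed to 9.65 to 11.0 CPM in inactivated and 4.12 to 4.54 CPM in control libraries, with 1 of 2 tested genes, KDR, higher. Leukocyte markers, 0 of 6 tested, summed to 0.175 to 0.584 CPM in inactivated and 0.374 to 0.542 CPM in control libraries, and the 6 microglia and glia markers to 0.0547 to 0.222 CPM in inactivated and 0.0301 to 0.113 CPM in control libraries. Among the marker genes called, LHX4 and KRT18 passed the filter on low counts through the inactivated libraries alone, and SLC18A3, FAP, GRHL2 and EOMES through the control libraries alone. The part of other cells in the HOXC values was not tested.

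The protein-coding genes whose levels over the 6 libraries lay closest to the mean of the HOXC genes were sought by Euclidean distance on log2(CPM + 0.5). They were HPD, an enzyme of tyrosine breakdown, at a distance of 0.153, ZNF641 at 0.243, CRYL1 at 0.319, ABHD8 at 0.376, ABCA8 at 0.403 and FAM78A at 0.416. HPD stood at 5.74, 5.20 and 5.29 CPM in the inactivated libraries, against 1.77, 1.87 and 2.20 CPM in the control libraries. The measure takes in both the level and the difference between groups.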

How the data were processed

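Messenger RNA of D283 cells was sequenced as 12 samples, 6 libraries on 2 lanes each. The authors deposited unnormalized counts for each gene and lane. The deposited table also holds the exon length of each gene in bases. Per the submitters' processing notes the build was GRCh38.p14 and the tools were STAR 2.7.2b, featureCounts 1.6.3, DESeq2 1.36.0, FastQC 0.11.9 and MultiQC 1.11. Strand and multiple alignments in counting are not given in the sources used here. Of the 49677 genes listed, 26 have no counts and were left out, and 22423 of the others had no read.

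Lanes were summed per library. Genes were filtered with filterByExpr (minimum count 10, which is 0.282 CPM here, minimum total 15), scaled by TMM and compared with edgeR 4.0.16 in R 4.3.3 (two-sided quasi-likelihood F test, prior count 0.125). P-values were adjusted by Benjamini-Hochberg over 14704 genes, with a threshold of 0.05. Groups come from the labels, and the labels give no replicate numbers that pair samples. On simulated data the test was checked for recovery of planted changes. Levels are mean ± SD of 3 libraries. Counting intervals are exact Clopper-Pearson intervals at 95%, and floors of 3 counts cover counting error only. Chi-square over degrees of freedom was 1.13 to 1.21 between lanes and 3.17 to 13.6 within groups, so no library was a copy of another.

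The members, the gene lists, the rule for named genes and the chromosome stretches were chosen with earlier results of these data known. Named were the members, all tested HOX genes and HOXC noncoding RNAs, tested protein-coding genes within 500 kb, up to 4 genes a list with the lowest p and at least 1 CPM, and the 6 genes nearest in pattern. LINC02381, SCAT2, HOXC-AS1, HOTTIP, HOXA4 and HOXD13, the other TALE genes, EZH2, RXRA, RXRG, and listed genes at or near 0 were named after their values were seen. The alternatives were DESeq2 1.42.0, limma-voom 3.58.1, other scaling, no filter, single lanes, a prior count of 2, a 1.5-fold null and each library left out. Some genes that the naming rule gave, and some sequences, are not reported here.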

Additional observations from a re-analysis of the deposited data

How the results depend on the processing

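The median log2 fold change of the 9 HOXC genes was 1.49 and ran between 1.40 and 1.59 over the other settings, and between 1.43 and 1.59 with 1 library left out. The 1.40 came from the second lane alone. With either lane alone HOXC13 was not among the genes tested, so the median there is that of the other members. Of 9 members 8 passed in all settings but 3: 7 passed with the first or the second lane alone, and all 9 without control replicate 1, where HOXC8 stood at -0.15. The fitted value of HOXC12 ran between 4.27 and 8.27 and that of HOXC11 between 6.82 and 9.04, since the control counts are 0 or nearly so. Both low ends came from the prior count of 2. The next lowest values were 6.09 for HOXC12 with limma-voom and 7.62 for HOXC11 without control replicate 2. Genes called over the whole table numbered 8726, between 7468 and 9328 in the other settings, except that 2280 passed against a null of a 1.5-fold change, which by construction asks for a larger difference. Of the genes beside the cluster 9 of 17 tested were called within 500 kb and 18 of 31 tested within 1000 kb, against 59.3% of all tested genes. Among the 18, AMHR2 and KRT18 passed the filter on low counts through the inactivated libraries alone. CBX5 was called in 3 other settings and TARBP2 in 1, while STAG2 lost its call in 6 and ISL2 in 2; the cause was not tested. Of the lists, CTCF and cohesin gave 3 calls without inactivated replicate 3 or without control replicate 1, against 5. Spinal motor neuron markers gave 2 calls with the first lane alone and 3 with the second, against 5, and the HOXB cluster gave 0 with the first lane alone, where HOXB13 was not among the genes tested. With no filter on low counts, epithelial markers gave 5 calls against 3, leukocyte markers 2 against 0 and the HOXD cluster 1 against 0. In these settings 0 called values changed sign. No paired analysis was possible because the labels give no replicate numbers shared between the groups. Depth limits HOXC12, HOXC13 and the untested HOX genes, for which 3 counts are 0.0612 to 0.0895 CPM.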
